A study of Homo sapiens with 8 samples.

Results

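NRF2 (gene symbol NFE2L2) is the transcription factor that turns on the antioxidant and detoxification genes of most human cells. KEAP1 is the adaptor that brings NRF2 to the CUL3 ubiquitin ligase, so that NRF2 protein is steadily degraded. Oxidants and electrophilic compounds modify cysteines of KEAP1, NRF2 then builds up in the nucleus with a small MAF protein as partner, and the pair binds the antioxidant response element (ARE) near its target genes. Because this control acts on the protein, the RNA of NFE2L2 itself need not change when the pathway is switched on. Described here are 10 genes, of 28265 in the count tables, chosen by symbol: the regulators NFE2L2, KEAP1 and SQSTM1 (p62), and the targets GCLC, GCLM, SLC7A11, TXNRD1, SRXN1, NQO1 and OSGIN1. All 10 passed the filter on low counts in every comparison.

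The study treated low-passage IMR90 cells, primary human fetal lung fibroblasts used as a cell line, with inflachromene (ICM), a small molecule that binds HMGB1 and HMGB2, and described a senescence-like state. Nascent RNA was sequenced by "factory" RNA-Seq, an approach that isolates the RNA attached to sites of active transcription, although the sample labels describe poly(A)-selected total RNA and the protocol of these 8 libraries could not be settled from them. The conditions were untreated young cells (control, vehicle not stated in the labels), cells after 3 days or 6 days of ICM (10 µM in the study), and cells labelled MetaICM, a treatment for which the labels give neither a definition, a dose nor a time, each with 2 libraries. Nothing in the labels says whether the 2 libraries of a condition came from separate cultures, so p-values measure the spread between those libraries, which may be technical.

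Library totals ran from 12095123 to 23166405 exonic read pairs, and each library resembled the other library of its own condition best (r between 0.984 and 0.993 on log2 normalised counts). The 10 fibroblast markers were present in all 8 libraries, and their summed level was 23271 and 23435 CPM (read counts per library scaled to a common total) in control, 20405 and 21293 in MetaICM, 13058 and 14441 at 3 days and 11056 and 11425 at 6 days. The 6 epithelial markers summed to 4.14 and 5.77 CPM in control, 7.86 and 7.93 in MetaICM and 0.598 to 1.42 with ICM, with KRT19 reaching 7.47 CPM. The 6 immune markers summed to 7.29 and 8.15 CPM in control, 19.8 and 23.8 at 3 days, 19.9 and 23.3 at 6 days and 15.6 and 15.8 in MetaICM, with CD68 the highest and no read of CD3E in any library. Among the 5 endothelial markers (129 to 234 CPM in sum) TEK made up nearly everything while PECAM1, CDH5 and CLDN5 stayed at or below 0.595 CPM. Within the fibroblast sum COL1A1 ran from 1876 to 8812 CPM over the 8 libraries and COL3A1 from 2427 to 3198. With ICM the fibroblast and epithelial sums thus moved in the opposite direction to the genes described next and the immune sum in the same direction. The endothelial sum was lower at 3 days (129 and 132 CPM, against 184 and 194 in control) and spanned control at 6 days (164 and 196). The part of these sums in the results below was not tested. In bulk RNA, fewer cells of a type and less RNA per cell cannot be told apart.

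Shown first are matches near the members to the core of the element that NRF2 and its MAF partner bind. Whether NRF2 binds at these stretches was not tested. The core TGACNNNGC was searched on both strands, and 5 of the members held a match in one of 2 kinds of window, a union not counted over all genes. Each line below gives 29 bases on the strand of the gene, with the core in capitals; in GCLM and GCLC the core lies in the reverse orientation, so the capitals read as its reverse complement.
NQO1: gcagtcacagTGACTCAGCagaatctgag
TXNRD1: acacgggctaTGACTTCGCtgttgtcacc
OSGIN1: agacaatctgTGACTTGGCcccagttttc
GCLC: acaggtcattGCTCTGTCAacacatattt
GCLM: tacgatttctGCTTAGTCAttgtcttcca
The stretch of NQO1 lies at chr16:69760900-69760928 on the minus strand, its core starting 455 bases upstream of the outermost start of the gene. That of TXNRD1 lies at chr12:104609448-104609476 on the plus strand with its core 99 bases upstream, that of OSGIN1 at chr16:83986278-83986306 on the plus strand with its core 557 bases upstream, and that of GCLC at chr6:53410751-53410779 on the minus strand with its core 870 bases upstream (all GRCh37). That of GCLM lies at chr1:93909446-93909474 on the minus strand of GRCh38.p14, 34 bases upstream of the RefSeq start. The 1000 bases upstream of the outermost start of GCLM in GRCh37, the window used for the others, held no match. Of the RefSeq promoters (250 bases before to 50 after the start), 2 of the 9 matched members (GCLM and TXNRD1) held the core, against 13.3% of 35114 promoters, and SLC7A11 had no entry. The promoter of TXNRD1 held 2 cores. The one not printed above lies in the reverse orientation, 8 bases upstream of the RefSeq start. Of the windows of 1000 bases upstream in GRCh37, a search added after expression values had been seen, 4 of 10 members held it, against 32.3% of 27472 windows. These letters are therefore common, a match is no proof of a binding site, and a missing match says only that the letters were not in the window.

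Across the 4 conditions, 8 of the 10 genes followed 1 pattern: between 2.17- and 10.7-fold higher than in control after 3 days of ICM, between 1.98- and 15.4-fold higher after 6 days, and not called different from control in MetaICM. SLC7A11 rose with ICM as well but was called lower than control in MetaICM, and NFE2L2 was called in none of these comparisons. The 10 genes together took 0.344% and 0.311% of all counts in the control libraries, 1.11% and 1.05% at 3 days, 1.22% in both libraries at 6 days, and 0.303% and 0.298% in MetaICM. A gene was called differentially expressed at an adjusted p under 0.05 with an absolute log2 fold change over 0.6, from edgeR's quasi-likelihood test across all genes. These are the cutoffs in the study's results, while its methods give an FDR under 0.01 with the same fold cutoff.

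**Figure D1:**
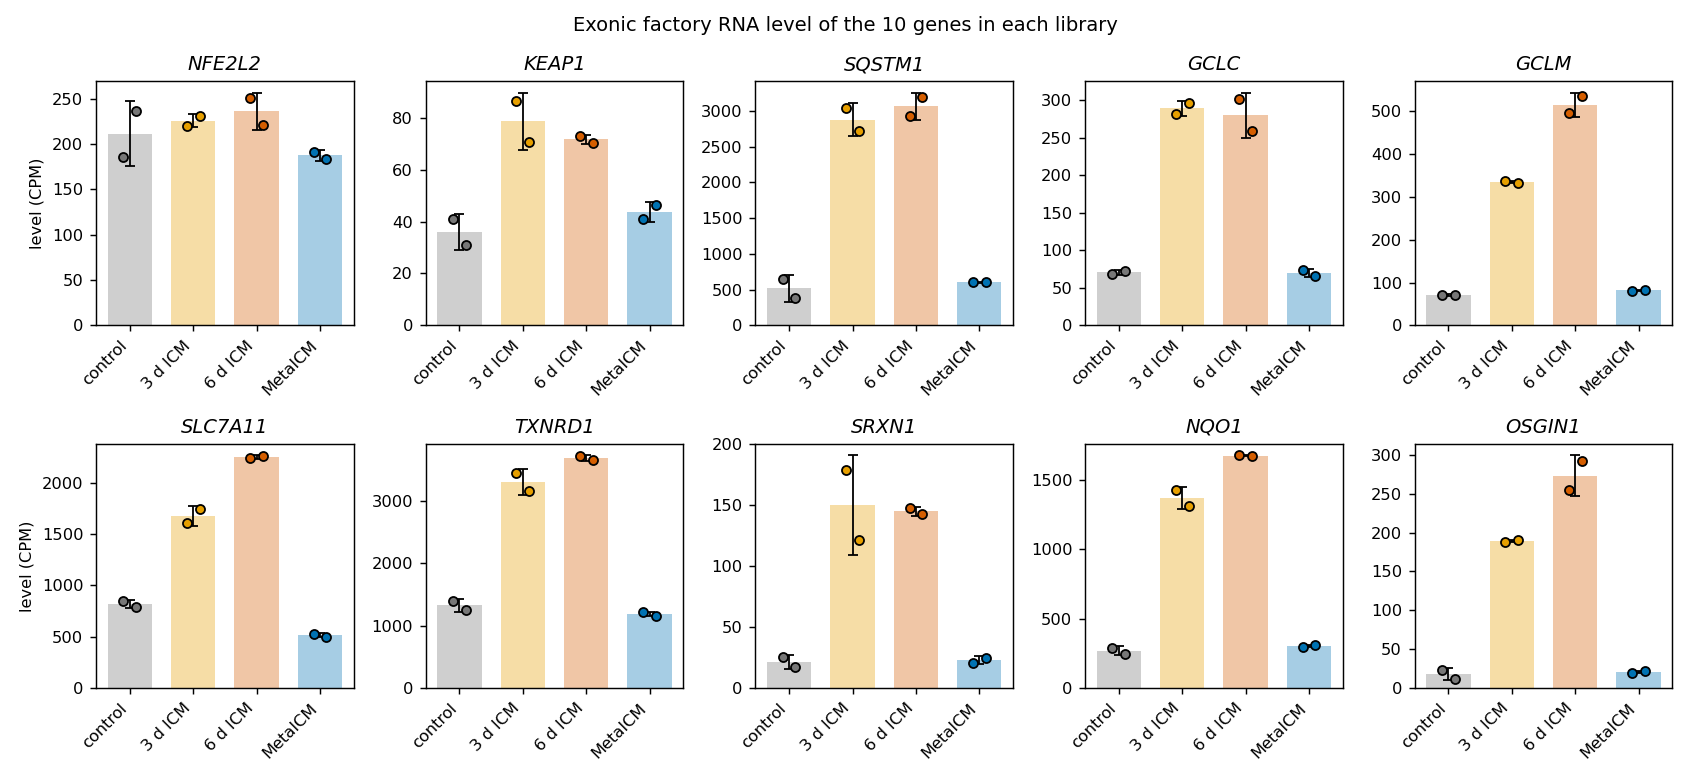
Level of each gene in CPM (linear axis from 0) in every library. Points are the 2 libraries of a condition, bars their mean and whiskers the SD. In all panels but NFE2L2 both ICM conditions stand above both control libraries. How often genes separate in this way was not counted over all genes, so it is no result about those shown.

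NFE2L2, at chr2:178095031-178129859 on the minus strand of GRCh37, measured 186 and 236 CPM in control, 220 and 231 CPM at 3 days, 250 and 221 CPM at 6 days, and 191 and 183 CPM in MetaICM. The control libraries spanned both 3-day libraries. Its log2 fold change against control was 0.09 ± 0.14 (SE, n = 2 libraries per condition) at 3 days, with an adjusted p of 0.665 and a 95% interval from -0.21 to 0.39. At 6 days it was 0.15 ± 0.14, with an adjusted p of 0.387 and an interval from -0.15 to 0.46. Both intervals leave out a change of 0.6, the cutoff for a call, in either direction. They rest on 12.1 and 10.3 degrees of freedom, more than the 4 libraries of a fit give alone. The fit shares its measure of spread across genes, so the intervals do not rest on the NFE2L2 counts only. Without control replicate 1 the log2 fold changes were -0.069 and -0.015.

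KEAP1, at chr19:10596801-10614032 on the minus strand, is both the brake on NRF2 and, in several cell types, a gene that NRF2 induces. It measured 41.1 and 31.2 CPM in control, 86.6 and 70.9 CPM at 3 days, and 73.1 and 70.5 CPM at 6 days, so the ICM libraries stood above both controls at each time. It rose 2.17-fold at 3 days (log2 fold change 1.12 ± 0.16, adjusted p = 0.000315) and 1.98-fold at 6 days (0.98 ± 0.14, adjusted p = 0.000373).

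SQSTM1, at chr5:179233393-179265077 on the plus strand, encodes p62, an autophagy receptor that binds KEAP1 and carries it to autophagosomes, and whose gene is an NRF2 target as well. Its control libraries differed widely, at 650 and 386 CPM, and were followed by 3037 and 2718 CPM at 3 days and by 2929 and 3198 CPM at 6 days. SQSTM1 rose 5.55-fold at 3 days (log2 fold change 2.47 ± 0.21, adjusted p = 3.54e-06) and 5.91-fold at 6 days (2.56 ± 0.21, adjusted p = 6.78e-06). Of its 3262 exon bases, 715 are shared with MGAT4B and MRNIP on the opposite strand, and the counting took no account of strand and left out pairs that fell on several genes.

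The glutathione arm came next. Glutamate-cysteine ligase makes the first and rate-limiting step of glutathione synthesis, with GCLC as its catalytic and GCLM as its modifier subunit, and SLC7A11 is the transporter (xCT) that brings in cystine for it. All these genes rose at both times. GCLC (chr6:53362140-53409899, minus strand) measured 68.2 and 72.7 CPM in control, 282 and 296 CPM at 3 days and 301 and 259 CPM at 6 days. Its rise was 4.09-fold at 3 days (log2 fold change 2.03 ± 0.13, adjusted p = 2.03e-07) and 3.96-fold at 6 days (1.99 ± 0.12, adjusted p = 8.17e-07), and the 2 times overlapped.

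GCLM (chr1:94350756-94375154, minus strand) was level with GCLC in the control CPM, at 69.8 and 71.8, and went on to 337 and 334 CPM at 3 days and 495 and 536 CPM at 6 days. Its rise against control was 4.73-fold at 3 days (log2 fold change 2.24 ± 0.12, adjusted p = 8.33e-08) and 7.26-fold at 6 days (2.86 ± 0.12, adjusted p = 7.36e-08). Between 3 and 6 days GCLM rose by another 1.53-fold (log2 fold change 0.62 ± 0.09, adjusted p = 4.63e-05), the only one of the 10 genes to be called in that comparison, in which 3.53% of the 15845 genes tested were called higher and 4.54% lower. That call stands close to the fold cutoff: the estimate was 0.59 with scaling by library totals, 0.60 (just under the cutoff) without 3-day replicate 2 and 0.56 without 6-day replicate 2, each time with no call. GCLC, by contrast, had a log2 fold change of -0.05 ± 0.09 between the times (adjusted p = 0.756, 95% interval -0.24 to 0.14).

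SLC7A11 (chr4:139085251-139163503, minus strand) measured 845 and 794 CPM in control, 1610 and 1745 CPM at 3 days and 2241 and 2263 CPM at 6 days, 3 groups that did not overlap. It rose 2.04-fold at 3 days (log2 fold change 1.03 ± 0.13, adjusted p = 9.46e-05) and 2.74-fold at 6 days (1.45 ± 0.12, adjusted p = 5.44e-06). From 3 to 6 days the log2 fold change was 0.42 ± 0.09 (adjusted p = 0.00193), past the p threshold and short of the fold cutoff. Of its 9645 exon bases, 276 are shared with the antisense gene SLC7A11-AS1, so pairs there that fell on both genes were left out of the count.

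The thioredoxin arm showed a large difference in scale between its members. TXNRD1 encodes the cytosolic thioredoxin reductase and SRXN1 encodes sulfiredoxin, which repairs over-oxidised peroxiredoxins. TXNRD1 (chr12:104609557-104744085, plus strand) was already abundant, at 1398 and 1247 CPM in control, and measured 3446 and 3153 CPM at 3 days and 3711 and 3652 CPM at 6 days. Its rise was 2.49-fold at 3 days (log2 fold change 1.32 ± 0.14, adjusted p = 2.23e-05) and 2.78-fold at 6 days (1.47 ± 0.12, adjusted p = 7.04e-06).

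SRXN1 (chr20:627268-633844, minus strand) started from 25.1 and 17.4 CPM in control, and measured 179 and 121 CPM at 3 days and 148 and 142 CPM at 6 days. The 3-day libraries thus spanned those of 6 days. SRXN1 rose 7.02-fold at 3 days (log2 fold change 2.81 ± 0.21, adjusted p = 1.16e-06) and 6.75-fold at 6 days (2.76 ± 0.16, adjusted p = 6.32e-07), and its difference between the times, -0.06 ± 0.13, did not pass the test (adjusted p = 0.795).

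NQO1 and OSGIN1 complete the set. NQO1 (chr16:69743304-69760463, minus strand) encodes the quinone reductase that is the standard readout of NRF2 activity. It measured 291 and 247 CPM in control, 1428 and 1313 CPM at 3 days and 1677 and 1673 CPM at 6 days, again 3 groups without overlap. NQO1 rose 5.09-fold at 3 days (log2 fold change 2.35 ± 0.14, adjusted p = 1.77e-07) and 6.22-fold at 6 days (2.64 ± 0.13, adjusted p = 1.86e-07). The step from 3 to 6 days, 0.29 ± 0.09, had an adjusted p of 0.0276 and lay under the fold cutoff.

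OSGIN1 (chr16:83986845-83999937, plus strand), an oxidative-stress-induced growth inhibitor, moved most of all the 10 genes. Its control libraries held 385 and 144 read pairs, or 22.9 and 11.9 CPM, against 188 and 191 CPM at 3 days and 254 and 292 CPM at 6 days. The rise was 10.7-fold at 3 days (log2 fold change 3.42 ± 0.23, 95% interval 2.93 to 3.91, adjusted p = 3.74e-07) and 15.4-fold at 6 days (3.94 ± 0.24, interval 3.42 to 4.47, adjusted p = 7.16e-07). Without control replicate 1 these log2 fold changes were 3.99 and 4.50, above the upper ends of the intervals. Without control replicate 2 they were 3.03 and 3.57. From 3 to 6 days the log2 fold change was 0.52 ± 0.09 (adjusted p = 0.000399), under the cutoff, though it reached 0.63 and was called without 6-day replicate 1. In all, 4 of the 10 genes (GCLM, SLC7A11, NQO1 and OSGIN1) were higher at 6 than at 3 days by an adjusted p under 0.05 at any fold, a rule by which 9.66% of the 15845 genes tested were higher and 9.66% lower.

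Set against all genes tested, 9 of the 10 were called higher at 3 days, where 8.85% of 15692 genes were called higher and 13.2% lower, and 9 of 10 at 6 days, where 13.3% of 15950 genes were called higher and 17.2% lower. None of the 10 was called lower at either time, as all 10 log2 fold changes were above 0. The median log2 fold change of the 10 genes was 2.14 at 3 days and 2.27 at 6 days, beside 0.0094 and -0.0013 for all genes tested. OSGIN1 ranked 36th from the top by log2 fold change at 3 days and 35th at 6 days, while SLC7A11 (rank 699 at 3 days) and KEAP1 (rank 1130 at 6 days) were the lowest of the called members. With scaling by library totals, calls over all genes at 3 days came to 1785 higher and 1767 lower in place of 1389 and 2067, and the same 9 members were called. The 3-day and 6-day comparisons share their control libraries, so their results are not independent of each other. The 10 genes were chosen with earlier results of these data known, so their share of calls is no independent test.

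**Figure D2:**
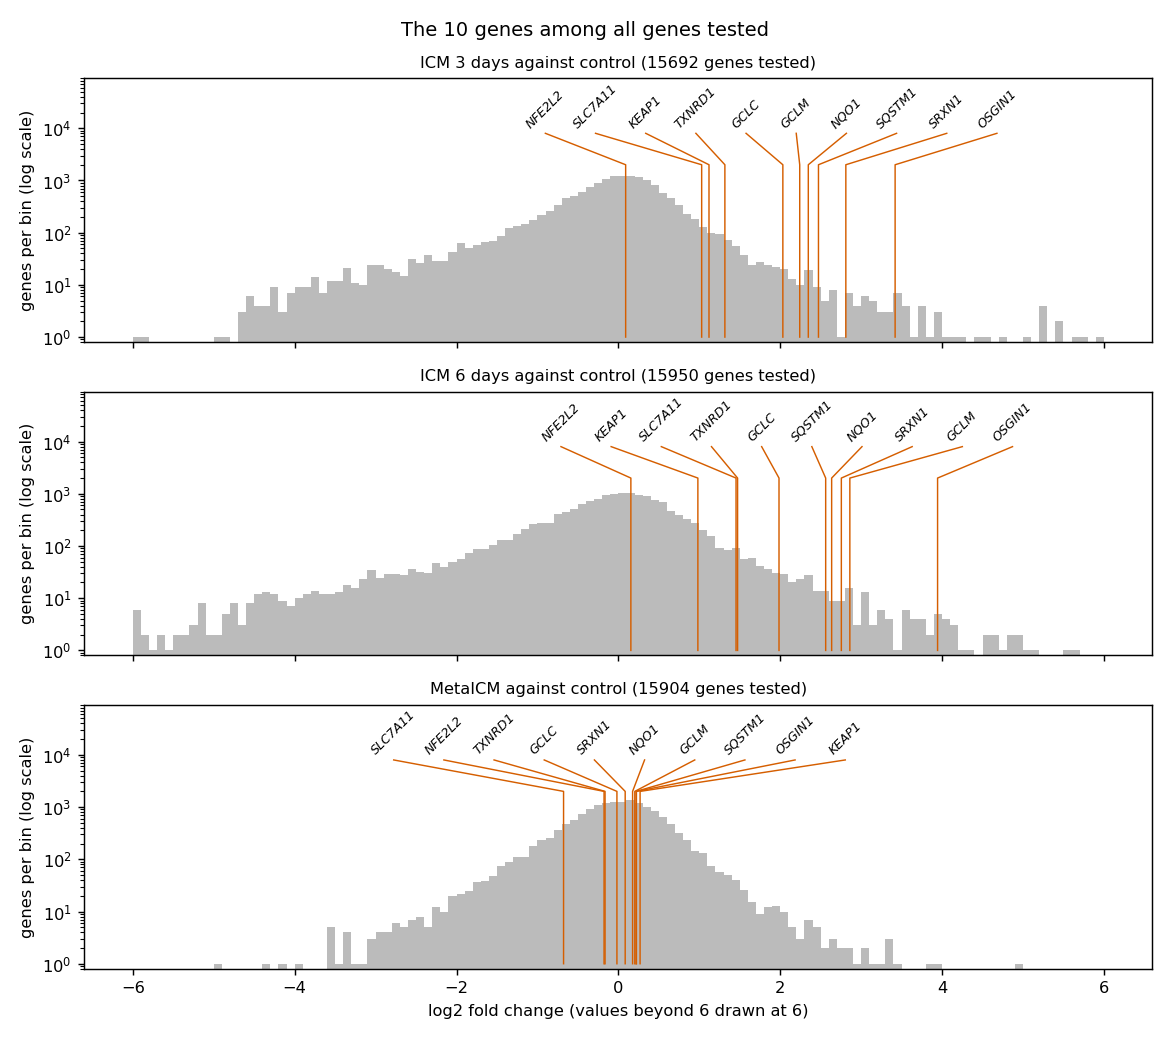
Log2 fold change of all genes tested (grey, number of genes per bin on a log axis) and of the 10 genes (orange lines) against control. In both ICM panels 9 of the 10 lie on the right-hand flank and NFE2L2 lies at the centre; in MetaICM all but SLC7A11 lie within 0.27 of 0.

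MetaICM libraries returned values close to those of control for most of the 10 genes. GCLC measured 73.7 and 65.8 CPM, GCLM 80.6 and 82.7 CPM, and KEAP1 41.1 and 46.4 CPM. SQSTM1 measured 600 and 609 CPM, TXNRD1 1209 and 1156 CPM, and SRXN1 20.5 and 25.0 CPM. NQO1 measured 299 and 310 CPM and OSGIN1 19.7 and 21.6 CPM, each far below every ICM library. Against control, 9 of the 10 genes were not called, in a comparison in which 7.41% of 15904 genes were called higher and 8.99% lower. Of these 9, adjusted p-values ran from 0.176 for GCLM to 0.921 for GCLC, and log2 fold changes from -0.18 for NFE2L2 to 0.27 for KEAP1. A missed threshold does not show equal levels, and the 95% intervals of SQSTM1 (-0.22 to 0.66) and OSGIN1 (-0.30 to 0.75) reach beyond the cutoff of 0.6. Both of these genes rest on control replicate 1: without it their log2 fold changes were 0.65 and 0.80, both called.

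SLC7A11 stood apart, at 528 and 499 CPM in MetaICM, below both control libraries. It was lower than in control by 1.599-fold (log2 fold change -0.68 ± 0.12, adjusted p = 0.00331), the only member called in this comparison. Without MetaICM replicate 2 the log2 fold change was -0.62 with an adjusted p of 0.0745, and the call was lost.

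Against 6 days of ICM, all 10 genes had log2 fold changes below 0 in MetaICM, and 9 were called lower. Over the 16036 genes tested, 12.0% were called lower and 15.7% higher. OSGIN1 was 13.2-fold lower (log2 fold change -3.72 ± 0.09, adjusted p = 4.37e-18), SRXN1 6.36-fold, GCLM 6.31-fold, NQO1 5.50-fold, SQSTM1 5.07-fold, SLC7A11 4.38-fold, GCLC 4.01-fold, TXNRD1 3.11-fold and KEAP1 1.64-fold. NFE2L2 had a log2 fold change of -0.33 ± 0.08 with an adjusted p of 0.000875, below the fold cutoff. Against 3 days of ICM the same 9 were called lower, by 1.80-fold (KEAP1) to 9.13-fold (OSGIN1), where 10.3% of 16209 genes were called lower and 13.1% higher, and NFE2L2 had a log2 fold change of -0.26 ± 0.08 (adjusted p = 0.0164). These comparisons share the MetaICM libraries with each other and the ICM libraries with those above. As the labels give MetaICM no dose or time, doses and times could not be matched.

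**Figure D3:**
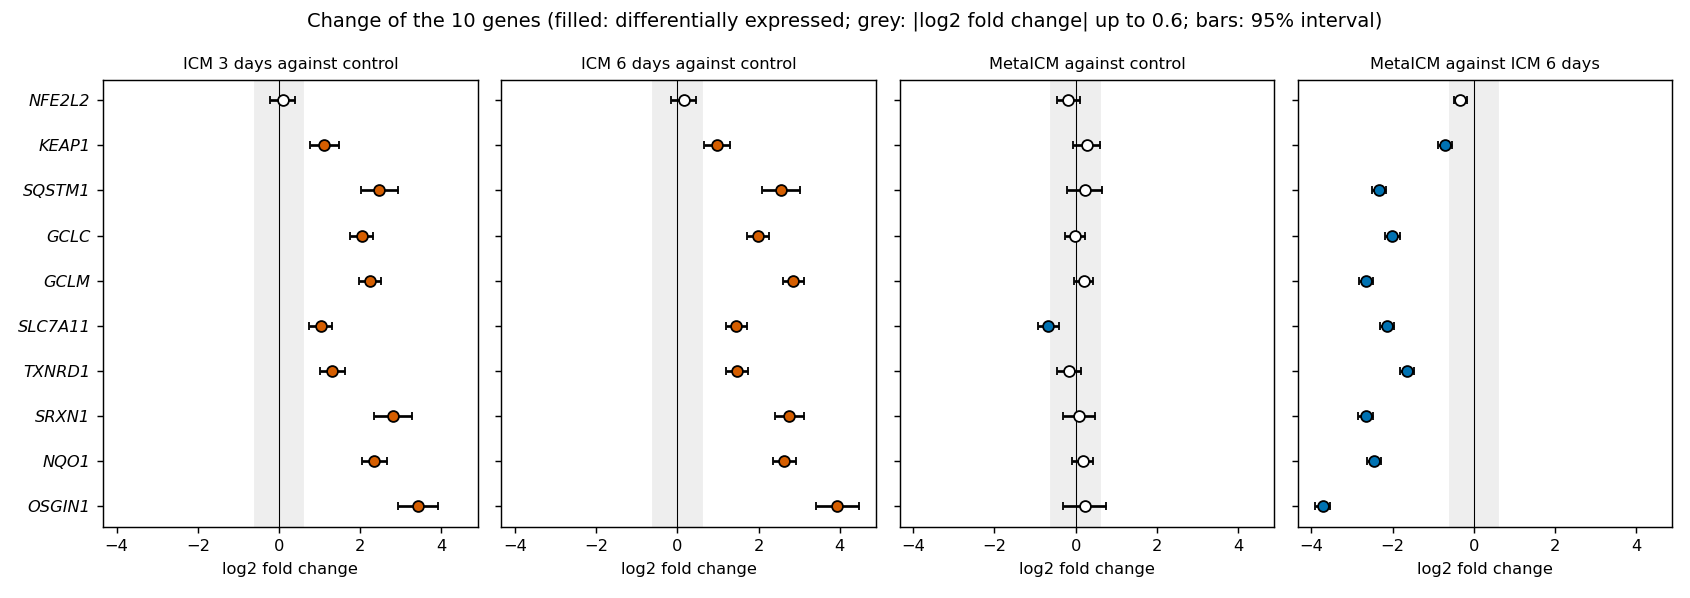
Log2 fold change (horizontal axis) of each gene with its 95% interval in 4 comparisons; filled points are differentially expressed and the grey band spans the fold cutoff of 0.6 either way. In both panels of ICM against control 9 points are filled on the right, in MetaICM against control only SLC7A11 is, on the left, and in MetaICM against 6 days 9 are filled on the left.

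Levels between genes were compared per exon length, in RPKM, CPM divided by the exon length in kilobases. In control the order was TXNRD1 (310 ± 25.1 RPKM, SD, n = 2), SQSTM1 (159 ± 57.3), NQO1 (107 ± 12.4), SLC7A11 (85.0 ± 3.70), NFE2L2 (59.0 ± 9.94), GCLC (18.6 ± 0.842), GCLM (14.0 ± 0.275), KEAP1 (13.7 ± 2.65), OSGIN1 (9.06 ± 4.04) and SRXN1 (8.44 ± 2.16). The libraries of GCLM and KEAP1, of KEAP1 and OSGIN1, and of OSGIN1 and SRXN1 overlapped, so the order at the low end is not settled. After 6 days of ICM, SQSTM1 (939 ± 58.4 RPKM) led TXNRD1 (864 ± 9.76) and NQO1 (664 ± 1.27). SQSTM1 then ranked 26th, TXNRD1 27th and NQO1 35th of the 16591 genes with a level, where they had ranked 182nd, 74th and 309th in control.

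**Figure D4:**
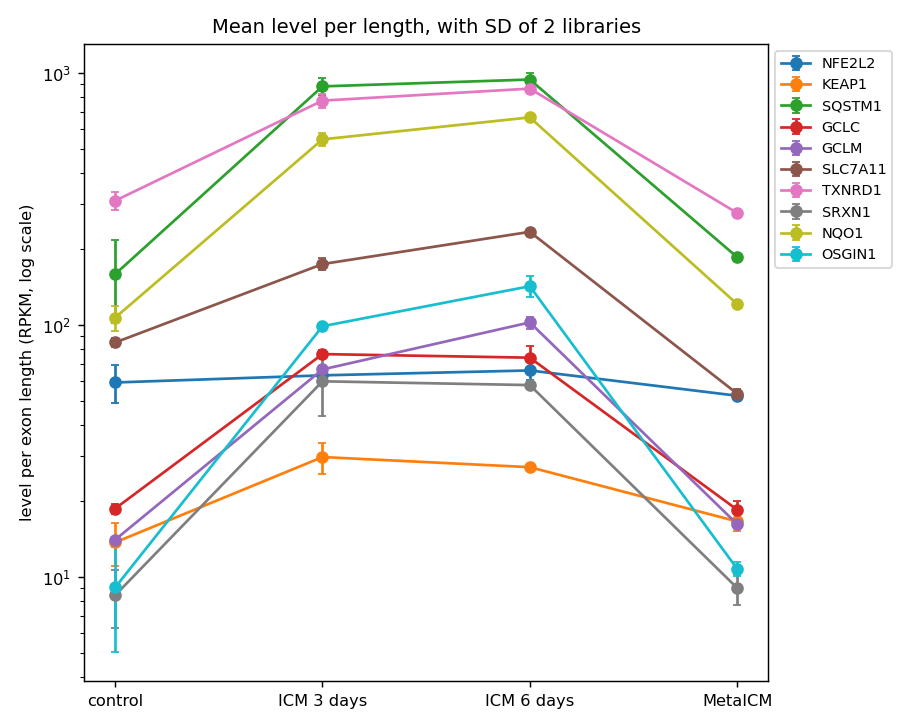
Mean level per exon length (RPKM, log axis) of each gene in each condition, with the SD of 2 libraries; lines join the values of 1 gene and are no time course beyond 6 days. SQSTM1 and TXNRD1 are the top pair in all 4 conditions, and OSGIN1 passes NFE2L2 in both ICM conditions only.

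With ICM the members also changed places. OSGIN1, next to last in control, ranked 5 of 10 at 3 days (98.6 ± 0.802 RPKM) and at 6 days (142 ± 13.7 RPKM), and KEAP1 was last at both times (29.8 ± 4.20 and 27.2 ± 0.691 RPKM). At 3 days NFE2L2 and SRXN1 overlapped, and at 6 days GCLC and NFE2L2 did. In MetaICM the order was again led by TXNRD1 (278 ± 8.71 RPKM) and closed by SRXN1 (9.02 ± 1.27 RPKM), with SLC7A11 (53.3 ± 2.11 RPKM) now overlapping NFE2L2 (52.2 ± 1.57 RPKM).

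Over the 8 libraries, the 36 pairs among the 9 genes other than NFE2L2 had Pearson correlations of log2 CPM from 0.805 to 0.996 (median 0.975), while those with NFE2L2 ran from 0.424 to 0.756. These points come in 4 pairs of libraries, so the values describe the shared pattern over conditions and carry no test. Among 9282 genes with a mean of at least 10 CPM, those most like NQO1 included PLOD2 (r = 0.998) and PTGR1 (0.998). For KEAP1 the 3 most alike were ATP1B1 (0.991), PGK1 (0.991) and SGSM3 (0.989). For NFE2L2 they were TMEM67 (0.969), MOCS2 (0.968) and SSH2 (0.965), whose means, like that of NFE2L2, were lowest in MetaICM and highest at 6 days. TMEM67, for instance, measured 17.3 ± 4.56 CPM in control, 18.7 ± 0.521 CPM at 3 days, 19.1 ± 0.861 CPM at 6 days and 14.7 ± 0.188 CPM in MetaICM.

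Beyond the 10 genes, 6 wider lists of the pathway were counted, beside 8.85% of all genes tested called higher and 13.2% lower at 3 days, and 13.3% higher and 17.2% lower at 6 days. The lists were chosen with earlier results of these data known, so their shares are no independent test. Among 35 tested genes of a list of other NRF2 targets, 29 were called higher at 3 days and 30 at 6 days, 29 of them at both, and none lower, with a median log2 fold change of 1.38 and 1.57. The aldo-keto reductases AKR1B10, AKR1C1 and AKR1C2, which reduce carbonyls and steroids, and HMOX1, which degrades heme, rose most at 6 days. AKR1B10 went from a mean of 3.54 to 104 CPM (log2 fold change 4.85 ± 0.17, adjusted p = 3.34e-08) and HMOX1 from 25.4 ± 15.2 CPM (SD, n = 2) to 426 CPM (4.04 ± 0.31, adjusted p = 3.66e-06). HMOX1 differed widely between the control libraries, and its log2 fold change was 4.85 without control replicate 1. The log2 fold changes of AKR1C1 (3.97) and AKR1C2 (3.59) are uncertain in their split, since these near-identical paralogs compete for uniquely mapped reads.

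In the list of glutathione synthesis and use, 12 of 30 tested genes were called higher and 2 lower at 3 days, and 13 higher and 3 lower at 6 days (medians 0.44 and 0.47). The glutaredoxin GLRX rose from 33.8 to 160 CPM at 6 days (log2 fold change 2.23 ± 0.12) and the glutathione S-transferase GSTM3 from 40.0 to 126 CPM (1.65 ± 0.11). GGT5, a gamma-glutamyl transferase, fell from 6.01 to 0.721 CPM (log2 fold change -3.05 ± 0.30) and OPLAH, the 5-oxoprolinase, fell from 13.1 to 4.27 CPM (-1.63 ± 0.25). Another gamma-glutamyl transferase, GGT1, named after its values were seen, went the other way from 1.53 to 3.39 CPM (1.10 ± 0.32), a call lost without 6-day replicate 2.

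In the thioredoxin and peroxiredoxin list, 5 of 18 genes were called higher and 2 lower at each time (medians 0.32 and 0.38), the lower calls being no more frequent than the 13.2% and 17.2% over all genes. At 6 days thioredoxin itself (TXN) rose from 60.0 to 278 CPM (log2 fold change 2.21 ± 0.11) and PRDX1, a peroxiredoxin, rose from 133 to 383 CPM (1.52 ± 0.14). The inhibitor of thioredoxin, TXNIP, fell from 154 to 33.7 CPM (-2.20 ± 0.14), and the methionine sulfoxide reductase MSRB3 fell from 84.5 to 38.5 CPM (-1.14 ± 0.12). PRDX5 and TXNL1, named because their higher calls at 6 days depended on single libraries, had log2 fold changes of 0.74 and 0.66. PRDX5 had 0.42 without control replicate 2 and TXNL1 had 0.58 without control replicate 1, both under the fold cutoff.

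Among the genes that remove superoxide and peroxide, 2 of 5 tested were called higher and none lower at 3 days, and 2 of 6 higher and 1 lower at 6 days (medians 0.56 and 0.13). SOD1, the cytosolic superoxide dismutase, had a log2 fold change of 1.22 ± 0.14 at 6 days and its copper chaperone CCS one of 0.79 ± 0.14. SOD3 was called lower from means of 0.670 and 0.133 CPM, too few reads for a reliable fold, and the call was lost when control replicate 2 or either 6-day library was left out.

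Of 20 partners and regulators of NRF2, 2 were called higher and 1 lower at 3 days, and 3 higher and 2 lower at 6 days (medians 0.01 and 0.04). These counts are near the shares over all genes (8.85% and 13.3% higher) or, for lower calls, under them (13.2% and 17.2%), and are no result about the list. At 6 days the small MAF partners MAFG and MAFF rose by log2 fold changes of 1.26 ± 0.14 and 0.82 ± 0.17, BTRC, a substrate receptor of a ubiquitin ligase that also acts on NRF2, rose by 0.79 ± 0.12, and the BACH-family repressor BACH2 fell by 0.82 from 7.08 to 4.01 CPM, a call lost when either 6-day library was left out. MAFG also stands in the list of targets. Of 12 autophagy receptors and p62 partners, 4 were called higher at each time, 3 of them at both, and none lower (medians 0.36 and 0.41). The receptors NBR1 (1.01 ± 0.12) and TAX1BP1 (0.85 ± 0.12), the LC3-family member GABARAPL1 (0.81 ± 0.13) and the kinase TBK1 (0.64 ± 0.12, and 0.57 with no call without 6-day replicate 1) were those called at 6 days.

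**Figure D5:**
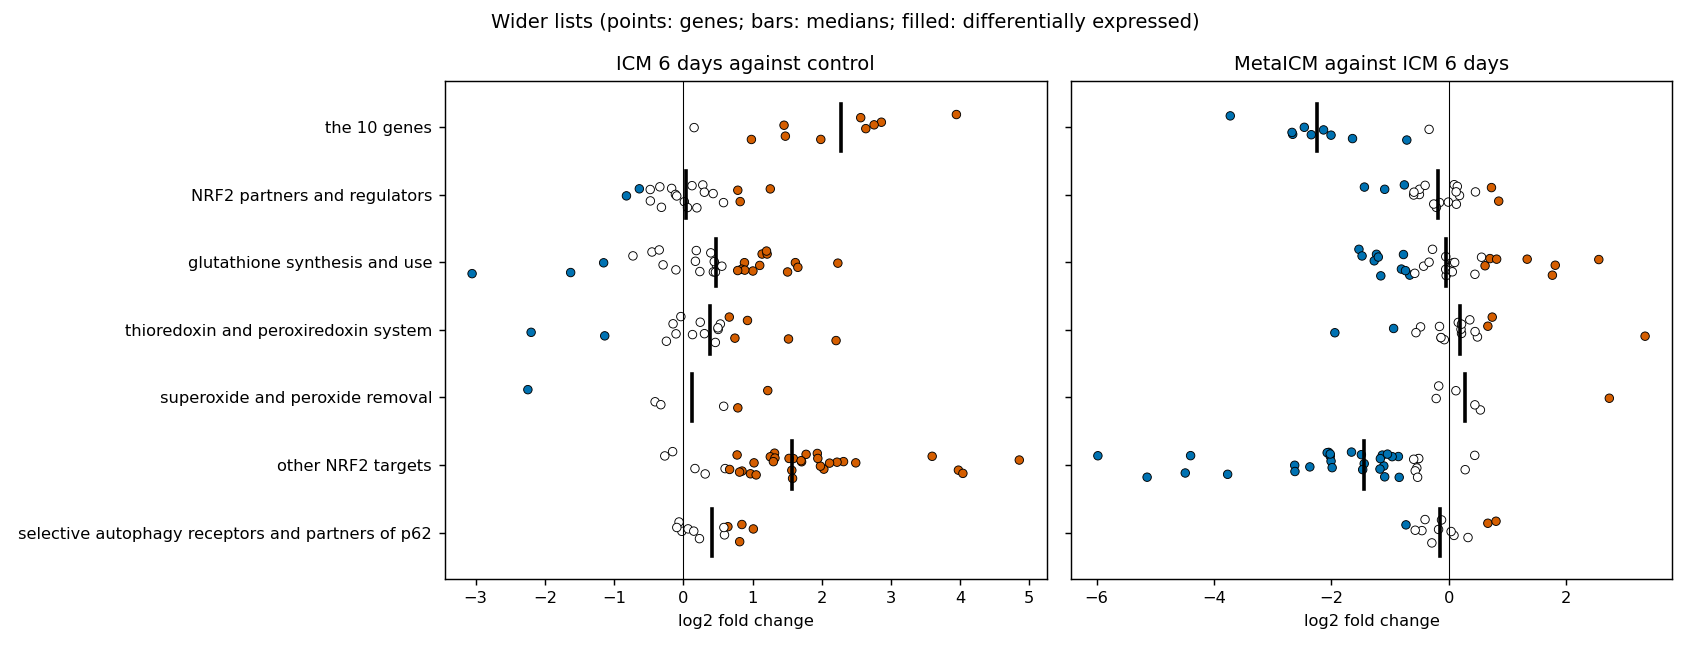
Log2 fold change (horizontal axis) of the genes of each list at 6 days of ICM against control (left) and in MetaICM against 6 days (right); points are genes, vertical bars list medians, filled points differentially expressed. The 10 genes and the other NRF2 targets lie mostly on the right of 0 in the left panel (medians 2.27 and 1.57) and on the left of 0 in the right panel (medians -2.24 and -1.44).

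In MetaICM against 6 days of ICM, 27 of 35 other NRF2 targets were called lower and none higher (median -1.44), and 26 of the 30 genes called higher at 6 days were among them. AKR1B10 was lower by a log2 fold change of -5.98 ± 0.13 and AKR1C1 by -5.14 ± 0.09. In 4 of the other 5 lists the calls went both ways, and over all genes 15.7% were called higher and 12.0% lower. They were 7 higher and 10 lower of 30 for glutathione (GGT5 at 2.56 ± 0.31 and OPLAH at 1.82 ± 0.16 rose) and 3 higher and 2 lower of 18 for thioredoxin (TXNIP rose by 3.35 ± 0.08 and TXN had -1.94 ± 0.07). Of the 6 genes of superoxide and peroxide removal 1 was higher (SOD3, at 0.930 CPM in MetaICM) and none lower. For the partners of NRF2, 2 of 20 were higher and 3 lower, with BACH2 at -1.44 ± 0.25 and MAFG at -1.09 ± 0.08. For the p62 partners 2 of 12 were higher and 1 lower, with OPTN at 0.81 ± 0.08 and TAX1BP1 at -0.73 ± 0.07. In these 5 lists, glutathione apart, the counts are near the shares over all genes or under them, and are no result about those lists. Against control, MetaICM had 3 of 35 other targets called higher and 4 lower (median -0.08), beside 7.41% of all genes tested higher and 8.99% lower. These counts are near those shares and are no result about the list.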

How the data were processed

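The deposited values are counts of read pairs on the exons of RefSeq genes, 1 table per library, which the authors made after mapping to GRCh37 (hg19) with STAR 2.6.0c (featureCounts 1.6.3 per the file headers: both ends mapped, no chimeric pairs, no strand, no reads on several places or genes). The counts are raw. The study's own nascent RNA results rest on intronic counts and the iRNAseq package; intronic counts were not analysed here. Pairs of conditions were tested with edgeR 4.0.16 (R 4.3.3; quasi-likelihood test, TMM factors, filterByExpr with a count minimum of 10, 4 libraries per fit), with Benjamini-Hochberg adjustment over all genes tested. Each SE is the absolute log2 fold change divided by the square root of the test's F statistic. Intervals are 95%, from the fit's degrees of freedom, which include what the fit borrows from other genes. CPM used TMM factors over all 8 libraries. DESeq2 1.42.0, other scalings, filters, thresholds, thinning and libraries left out served as alternatives.

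The members and lists were chosen with earlier results of these data known. Every member is described; of the wider lists (partners and regulators of NRF2, glutathione, thioredoxin, superoxide and peroxide removal, other targets, p62 partners), up to 4 called genes with the largest absolute log2 fold change at 6 days are named, plus up to 2 in MetaICM against 6 days. Library totals of 12095123 to 23166405 limit the precision of low genes; all errors are between libraries. ARE cores were searched in RefSeq promoters (GRCh38.p14) and in GRCh37. Of the 3 genes most like NFE2L2, KEAP1 and NQO1, all are named but 1, which is not reported here.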

Additional observations from a re-analysis of the deposited data

Results flagged for a closer look

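Effects of ICM that differed between 3 and 6 days by a direct test, as an adjusted p under 0.05 in edgeR, were found for 4 of the 10 genes, all higher at 6 days, where 9.66% of the 15845 genes tested were higher by the same rule. GCLM was higher at 6 days by a log2 fold change of 0.62 (adjusted p = 4.63e-05), OSGIN1 by 0.52 (adjusted p = 0.000399), SLC7A11 by 0.42 (adjusted p = 0.00193) and NQO1 by 0.29 (adjusted p = 0.0276). In each of them both 6-day libraries lay above both 3-day libraries. The same held for TXNRD1, whose adjusted p in that comparison was 0.246. This separation was not counted over all genes and is no result about these genes. With 2 libraries per condition no test of outlying libraries was made.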

How the results depend on the processing

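The 9 members called at 3 days, at 6 days and in both comparisons of MetaICM with ICM stayed 9 under every alternative, whichever library was left out. Between 6 and 3 days, 1 member was called, 0 with library totals and 0 to 2 with a library left out. For MetaICM against control the count was 1, and 0 to 3 with a library left out. A fit that leaves a library out assumes that the lone library of its condition varies like those of the other. Directions turned only where the gene was not called: GCLC in MetaICM against control was 0.0063 with library totals and 0.011 with all genes that had a count, in place of -0.018. With a library left out, 12 log2 fold changes of members took both signs, and their ranges were as follows. For NFE2L2 they were -0.069 to 0.26 at 3 days, -0.015 to 0.34 at 6 days, -0.018 to 0.15 between the times and -0.34 to 0.0077 in MetaICM against control. Between the times they were -0.28 to 0.020 for KEAP1, -0.00075 to 0.17 for SQSTM1, -0.15 to 0.053 for GCLC and -0.32 to 0.26 for SRXN1. In MetaICM against control they were -0.10 to 0.65 for SQSTM1, -0.076 to 0.076 for GCLC, -0.14 to 0.39 for SRXN1 and -0.15 to 0.80 for OSGIN1. The cause was not tested. Among the 610 values of members under the other alternatives, 1 lost its call (GCLM between the times, 0.59).

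Whether same-numbered libraries were paired was not settled: their deviations had correlations between -0.11 (3 days and MetaICM) and 0.17 (control and 3 days). A replicate block changed the calls over all genes from 3456 to 3915 at 3 days against control and from 1278 to 1450 for 6 against 3 days. For MetaICM against 3 days they went from 3798 to 3799. With a replicate block the members called were 9, 9, 1, 1, 9 and 9 in the order 3 days, 6 days and 6 against 3 days, then MetaICM against control, 6 days and 3 days, as without it. For MetaICM against 3 days of ICM, whose correlation was negative, a crossed pairing, chosen after seeing the data, called 9 members and 3956 genes in place of 3798. Over all genes, MetaICM against control had 2609 calls, 1532 at an adjusted p under 0.01, and 1049 to 4086 with a library left out; 3 days against control had 3456, and 2301 without 3-day replicate 1. Scaling by library totals moved the median of all genes by less than 0.1 in every comparison.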

Other observations

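Of the 43 distinct genes among the 5 most alike of each member over the 8 libraries, 4 stood in a wider list and 2 were members themselves. Chosen after their values were seen, ME1, an NADPH-producing malic enzyme, was the gene most like GCLC (r = 0.999), and HMOX1 was among those most like TXNRD1 (r = 0.994). IDH1 and TXN were among those most like GCLM (0.998 and 0.995). ALAS1, the first enzyme of heme synthesis, was the gene most like OSGIN1 (r = 0.999) and among the 5 most like SQSTM1 and NQO1 (0.998 and 0.997). These values describe 4 pairs of libraries and carry no test.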
